A study of Mus musculus with 18 samples.

Results

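The 7 circular RNAs made from 4 genes of chromatin and transcription control, Rere, Atxn1, Ncoa2 and Eed, were followed across mouse liver. They were chosen by position: a circular RNA belonged to the set when both of its ends lay inside the GRCm38 locus of 1 of the 4 genes. That gave 7 of the 434 circular RNAs in the table, 3 in Rere, 2 in Atxn1, 1 in Ncoa2 and 1 in Eed. A circular RNA forms when splicing links the tail of a later stretch of a transcript to the head of an earlier one, which closes a ring. Reads that cross this back-splice junction count it.

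The livers came from male C57BL/6 mice, 45 in all in 3 groups of 15, which were 6 weeks old at the start, and 6 livers of each group were sequenced at week 22. Control mice were gavaged daily with water and injected intraperitoneally with olive oil. Mice of the CCl4 group had the water gavage and injections of carbon tetrachloride (CCl4), a hepatotoxin that injures hepatocytes and is used to model fibrosis and liver cancer. Mice of the CCl4+PZH group had the same CCl4 injections and were gavaged daily with Pien Tze Huang (PZH), a formula of Chinese traditional medicine. Its labels have the spelling PTH, read here as PZH. Each library is 1 liver, a mixture of cell types.

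As background, all 4 proteins act on transcription without being classical DNA-binding factors. RERE, also called atrophin-2, is a nuclear receptor corepressor that recruits histone deacetylases and is needed in retinoic acid signalling. ATXN1 is a corepressor that works with Capicua and is the protein expanded in a form of spinocerebellar ataxia. NCOA2 (also GRIP1, TIF2 or SRC-2) is a p160 coactivator that nuclear receptors, among them the glucocorticoid receptor, recruit in hepatocytes. EED is the core subunit of Polycomb repressive complex 2 that binds trimethylated lysine 27 of histone H3 and allows the complex to spread the mark. Neither mRNA nor protein of these hosts was analysed here, and a circular RNA does not stand for them.

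The 3 circular RNAs of Rere did not overlap each other. Rere-a spanned chr4:150431523-150439468 (7946 bp), Rere-b chr4:150468695-150477468 (8774 bp) and Rere-c chr4:150500003-150510038 (10036 bp), all coordinates being GRCm38. Gaps of 29226 bp and 22534 bp separated them, and together they lay between 44.1% and 67.1% of the length of the 340456 bp gene. The 2 circular RNAs of Atxn1 were nested. Atxn1-a spanned chr13:45795509-45956575 (161067 bp) and Atxn1-b chr13:45852328-45956575 (104248 bp), so they shared the higher-coordinate end and differed by 56819 bp at the other. These were the 2nd and 4th longest spans of the 434, where the median span was 4691 bp. The Ncoa2 circular RNA spanned chr1:13221307-13286025 (64719 bp, the 8th longest) and that of Eed chr7:89955531-89962361 (6831 bp). The span is the genomic distance between the joined ends, not the length of the RNA. Each of the 7 lay inside 1 annotated gene (RefSeq, GRCm38.p6) with 0 other genes overlapping it. Exons and strand were not used here.

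**Figure D1:**
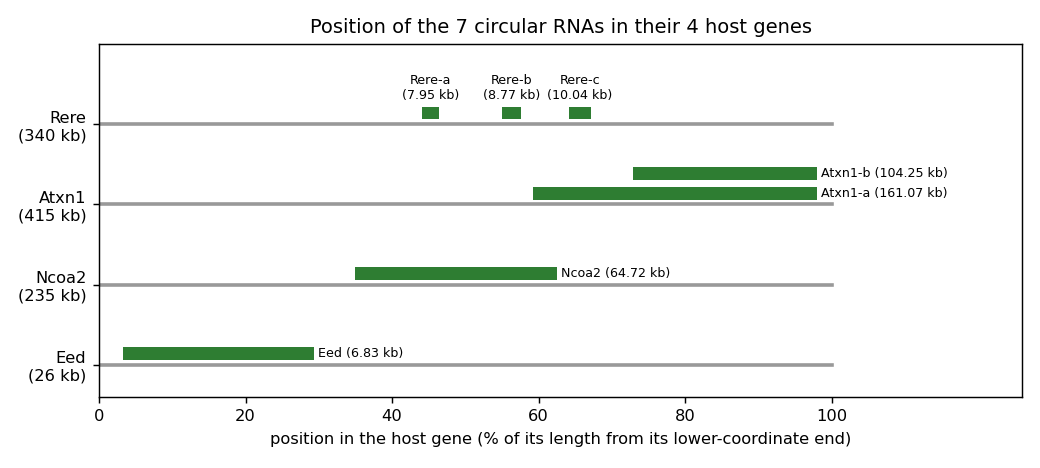
Position of each circular RNA (green bar, with its span in kb) along its host gene (grey line), as % of the gene's length from its lower-coordinate end. The 3 Rere circular RNAs are separate, and the 2 of Atxn1 share an end.

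Values are CPM, back-splice reads scaled to a library total set by the authors, and each library's values rose in steps of 1 read, from which its reads were recovered. The step was smallest in control 3 (0.0449 CPM) and largest in control 2 (0.306 CPM). The libraries held 900 to 2840 recovered reads over the 434 circular RNAs, of which 246 to 350 were above 0. The lowest sum of CPM, 40.4, and the highest, 550, both belonged to controls (3 and 4). Controls 2, 3 and 4 carry identifiers of a later deposit than the other 15 libraries, which include all exposed livers. Results against controls are also given below with the controls of either deposit alone. Only the controls of the earlier deposit share it with the exposed livers. Of the liver cell markers looked up as hosts, 7 of 12 hepatocyte genes (Abcc2, Bckdhb, Ces1c, Cyp1a2, Kng2, Pon1 and Slco1b2) hosted 11 circular RNAs. Alb, which encodes albumin, hosted none in the table.

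Eed was the most abundant of the 7 by a wide margin. Its mean over 18 libraries was 1.85 CPM, rank 8 of 434, from 233 reads. Rere-b followed at 0.511 CPM (rank 113, 65 reads) and Rere-c at 0.383 CPM (rank 157, 49 reads). Atxn1-b had 0.31 CPM (rank 211, 42 reads), Rere-a 0.23 CPM (rank 302, 30 reads), Atxn1-a 0.182 CPM (rank 352, 27 reads) and Ncoa2 0.158 CPM (rank 377, 21 reads). The median circular RNA of the table had 0.302 CPM and 39 reads, so Rere-a, Atxn1-a and Ncoa2 lay below it. Eed exceeded Rere-b in 17 of 18 libraries, by 1.34 ± 1.56 CPM (SD, n = 18). Each step in this order, also that from Eed to Rere-b, was smaller than the SD of the difference between the neighbours, for example 0.127 ± 0.663 CPM between Rere-b and Rere-c. Eed was above 0 in 17 libraries, Rere-b in 13, Rere-c in 12 and the other 4 in 10 each. The 7 together took 467 of 25803 reads (1.81%).

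The comparison of CCl4 with control asks how circular RNA differs in the injured liver. All 3 circular RNAs of Rere had lower means in CCl4 livers than in controls, and again lower means in CCl4+PZH livers than in controls, but none of them passed the test. Summed over the 3, Rere took 90 of 9529 reads in controls (0.944%), 27 of 7386 in CCl4 livers (0.366%) and 27 of 8888 in CCl4+PZH livers (0.304%). The other 4 circular RNAs showed no such pattern. In bulk liver, fewer cells of a type and less RNA per cell cannot be told apart.

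Rere-a stood at 0.816, 0.306, 0.0449, 1.35, 0.163 and 0.61 CPM in controls 1, 2, 3, 4, 5 and 8. In CCl4 livers it was 0.146 CPM in CCl4 2, 0.175 CPM in CCl4 7 and listed at 0 in the other 4. In CCl4+PZH livers it was 0.377 CPM in mouse 2, 0.151 CPM in mouse 7 and again listed at 0 in the other 4. It was thus seen in every control and in 2 of 6 livers of either exposed group, but controls 2 and 3 held only 1 read each and the groups overlapped. At 2 or more reads it was seen in 4 of 6 controls and in 1 of 6 livers of either exposed group. At a floor of 3 reads, the zeros of CCl4 livers 1, 4, 5 and 8 allow up to 0.429, 0.411, 0.367 and 0.276 CPM. Those of CCl4+PZH livers 1, 3, 6 and 8 allow up to 0.291, 0.441, 0.443 and 0.515 CPM. All of these bounds lie above the values of controls 3 and 5. The group means were 0.549 ± 0.487 CPM (SD, n = 6, 23 reads) in controls, 0.0535 ± 0.0833 CPM (n = 6, 3 reads) in CCl4 and 0.088 ± 0.154 CPM (n = 6, 4 reads) in CCl4+PZH.

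Rere-b stood at 0.408, 1.53, 0, 2.32, 0.245 and 1.73 CPM in controls 1, 2, 3, 4, 5 and 8. In CCl4 livers 1, 2, 4, 5, 7 and 8 it was 0, 0, 0.274, 0.734, 0.0874 and 0.552 CPM, and in CCl4+PZH livers 1, 2, 3, 6, 7 and 8 it was 0.194, 0.377, 0.441, 0.295, 0 and 0 CPM. Controls 2, 4 and 8 lay above all exposed livers, and controls 1, 3 and 5 lay among them. The means were 1.04 ± 0.946, 0.275 ± 0.308 and 0.218 ± 0.188 CPM (SD, n = 6 each), from 40, 15 and 10 reads.

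Rere-c was above 0 in all 6 controls, at 0.408, 1.22, 0.0449, 0.774, 0.816 and 0.508 CPM. It was 0.584, 0.549 and 0.0874 CPM in CCl4 livers 2, 4 and 7 and 0 in the other 3. In CCl4+PZH livers it was 0.377, 1.36 and 0.172 CPM in mice 2, 7 and 8 and 0 in the other 3. The single highest value of Rere-c was therefore in a treated liver, CCl4+PZH 7, which alone held 9 of that group's 13 reads. The means were 0.629 ± 0.404, 0.203 ± 0.283 and 0.318 ± 0.53 CPM (SD, n = 6 each).

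**Figure D2:**
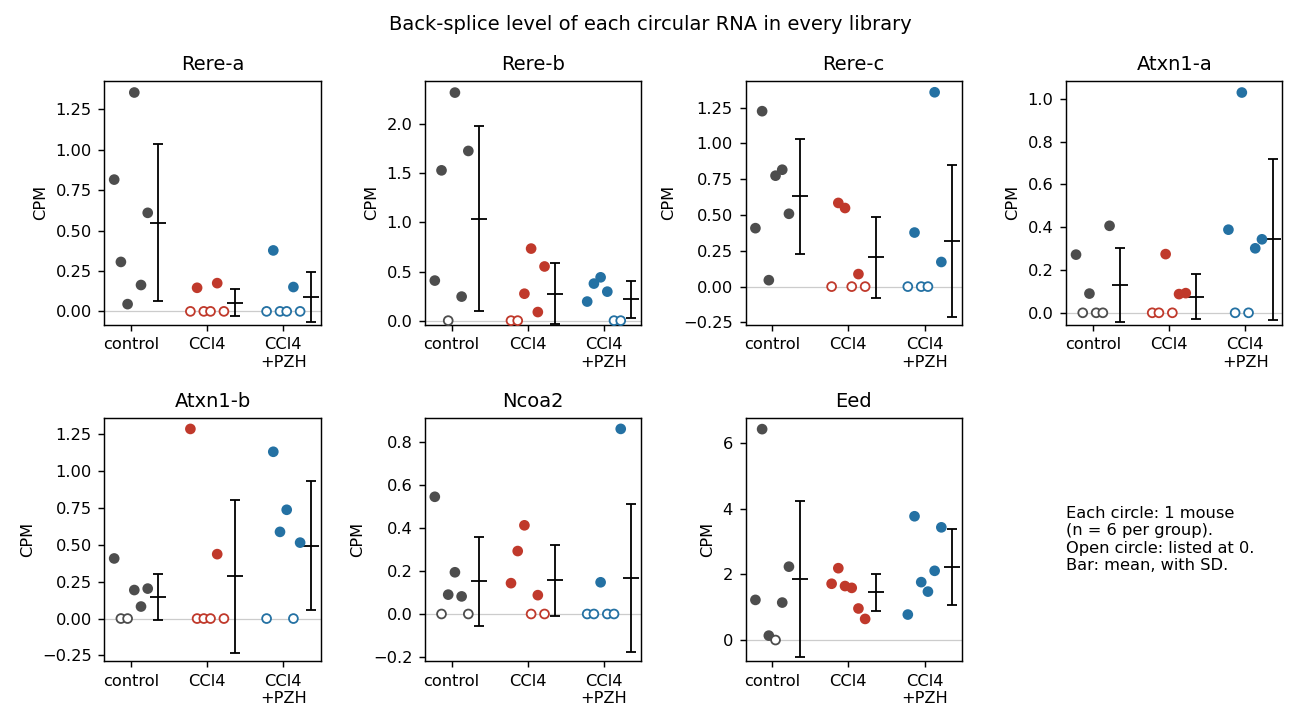
CPM of each circular RNA (one panel each, own axis) in the 18 livers, by group; filled circles are livers above 0, open circles livers listed at 0, and bars the mean with SD (n = 6). Rere-a and Rere-c are above 0 in all 6 controls and in 2 or 3 livers of each exposed group.

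Differences were tested with limma on log2(CPM + 0.137) in 1 fit of all 18 libraries, with Benjamini-Hochberg adjustment over the 434 circular RNAs and a threshold of 0.05. On this scale the change of low values is understated. For CCl4 against control, 3 of 434 circular RNAs passed (0.691%), and 0 of the 7 were among them. At an unadjusted p under 0.05 the table held 36, of which Rere-a was 1. edgeR on the recovered reads called 5 of 434 (1.15%) and DESeq2 called 2, in both cases with 0 of the 7 among them.

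Rere-a differed by -1.62 (SE 0.60, 95% interval -2.79 to -0.45), with an unadjusted limma p of 0.00681, the 12th smallest of 434, and an adjusted p of 0.246. Rere-c differed by -1.34 (SE 0.69, interval -2.70 to 0.01, limma adjusted p = 0.535) and Rere-b by -1.29 (SE 0.70, interval -2.66 to 0.08, limma adjusted p = 0.551). The median over the table was -0.28, and 62 of 434 circular RNAs (14.3%) lay at -1 or lower, as all 3 Rere circular RNAs did. Relative to that median, Rere-a, Rere-b and Rere-c lay at -1.33, -1.0 and -1.06. As a share of livers above 0, Rere-a stood at 2 of 6 against 6 of 6, where the two-sided Fisher's exact test gave p = 0.0606 and an adjusted p of 1. At 2 or more reads it stood at 1 of 6 against 4 of 6 (Fisher's exact test, p = 0.242). Detection differed past the threshold for 0 of 434 (0.0%). The smallest p of Fisher's exact test over the table was 0.0022, which is the smallest that 6 against 6 livers can give, with an adjusted p of 0.939, so a call was hardly within reach of this test.

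For CCl4+PZH against control, 1 of 434 circular RNAs passed in limma (0.23%) and 2 in edgeR (0.461%), with 0 of the 7 among them. Rere-a differed by -1.49 (SE 0.60, interval -2.66 to -0.32, limma adjusted p = 0.763, unadjusted p the 6th smallest of 434). Rere-b differed by -1.35 and Rere-c by -1.16, each with a limma adjusted p of 0.763, where the table's median was 0.02. At -1 or lower lay 26 of 434 (5.99%). The groups overlapped for all 7 in every comparison, where 3, 1 and 2 of 434 did not in CCl4 against control, CCl4+PZH against CCl4 and CCl4+PZH against control (0.691%, 0.23% and 0.461%). The comparisons of the exposed groups with control use the same 6 controls, so they do not give separate support.

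With the controls of either deposit alone, the Rere values kept their sign. Using only controls 1, 5 and 8, which belong to the deposit of the exposed livers, CCl4 against control gave -1.76 for Rere-a, -1.20 for Rere-b and -1.44 for Rere-c. Using only controls 2, 3 and 4 gave -1.48, -1.38 and -1.25, a contrast in which group and deposit cannot be told apart. For CCl4+PZH against control the same pairs of values were -1.63 and -1.35 for Rere-a, -1.26 and -1.44 for Rere-b, and -1.26 and -1.07 for Rere-c. Without controls 3 and 4, the lowest and highest in summed CPM, CCl4 against control gave -1.65, -1.50 and -1.68 for Rere-a, Rere-b and Rere-c. No adjusted limma p with the controls of either deposit alone passed the threshold. The smallest for a Rere circular RNA in CCl4 against control was 0.239.

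As a share of each library's own recovered reads, which does not depend on the total behind the CPM, Rere took 0.892 ± 0.426% (SD, n = 6) of control reads, 0.385 ± 0.226% in the CCl4 group and 0.29 ± 0.239% in the treated group. The controls stood at 0.908%, 0.792%, 0.222%, 0.81%, 1.10% and 1.52% for mice 1, 2, 3, 4, 5 and 8. CCl4 livers 2, 4, 5, 7 and 8 stood at 0.437%, 0.538%, 0.419%, 0.27% and 0.645%, and CCl4 1 had 0 of 1284 reads, which allows a share of up to 0.234%. CCl4+PZH livers ran from 0.072% to 0.685%. By share, 5 of 6 controls lay above all 12 exposed livers, and by summed CPM 4 of 6 did, where control 5 had 1.22 CPM and the highest exposed liver 1.51 CPM. By share control 3, with 2 of 900 reads (exact Clopper-Pearson 95% interval 0.027% to 0.8%), lay among the exposed livers. Such counts were not made for hosts outside the genes described here, so whether they are unusual in the table cannot be said. Intervals of single livers were wide: control 8, the highest, had 28 of 1836 reads (1.02% to 2.2%), and CCl4+PZH 7, the highest exposed liver, 10 of 1460 (0.329% to 1.26%). PCR copies are not independent molecules, so these intervals and floors cover only the error of counting.

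**Figure D3:**
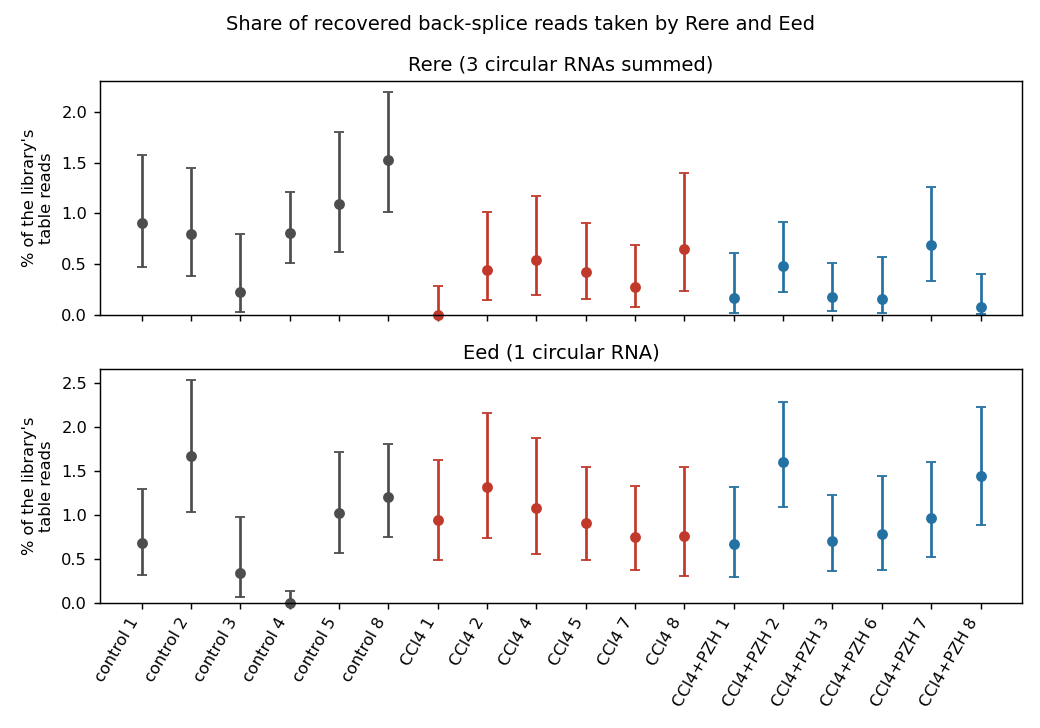
Share of each library's recovered back-splice reads (%) taken by the 3 Rere circular RNAs summed and by Eed, one point per liver with its exact 95% binomial interval. For Rere, 5 of 6 controls lie above the highest exposed liver (0.685%). For Eed, 1 of 6 controls lies above the highest exposed liver (1.61%) and control 4 is at 0. Such counts were not made for hosts outside the genes described here.

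Within Rere, the 3 circular RNAs did not keep a fixed proportion. In controls Rere-a, Rere-b and Rere-c took 25.6%, 44.4% and 30.0% of the 90 reads; in CCl4 livers they took 11.1%, 55.6% and 33.3% of 27, and in CCl4+PZH livers 14.8%, 37.0% and 48.1% of 27. With 27 reads and 6 livers a group, these proportions were not tested. All 3 were above 0 together in 5 of 6 controls, 1 of 6 CCl4 livers and 1 of 6 CCl4+PZH livers. Of the 11 host genes with 3 or more circular RNAs in the table, all circular RNAs lay at -1 or lower in CCl4 against control for Rere and for Ttc39c, and in CCl4+PZH against control for Rere. Over the 44 hosts with 2 or more, Slco1b2 joined them in the first comparison and Tlcd4 joined Rere in the second. The bound of -1 was chosen after the values were seen.

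The circular RNAs of hepatocyte marker genes were also lower in CCl4 livers in most cases. Their summed level ran from 1.89 to 17.2 CPM in controls (median 7.21), 2.19 to 3.57 CPM in CCl4 (median 3.2) and 4.08 to 10.9 CPM in CCl4+PZH (median 7.32). Of the 11, 1 was higher and 10 were lower in CCl4 than in control by the sign of the log2 difference (median -1.26), and 0 passed. Over all 434, 273 (62.9%) were lower, with a median of -0.28. In CCl4+PZH against CCl4, 10 of the 11 were positive (median 0.53), beside 303 of all 434 (median 0.23). Rere-a, Rere-b and Rere-c stood at 0.12, -0.06 and 0.18. Macrophage markers had 4 circular RNAs from 2 of 9 genes (Adgre1 and Mertk), with a summed level of 0 to 2.71, 0.368 to 4.66 and 0.68 to 3.02 CPM in control, CCl4 and CCl4+PZH. Of 8 lymphocyte genes Ikzf1 hosted 1, at 0 to 0.968, 0 to 1.05 and 0.344 to 1.51 CPM, and the stellate, endothelial and cholangiocyte genes hosted 0. The part of cell composition in the Rere values was not tested.

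CCl4+PZH was set against CCl4 to ask what the medicine changes in injured liver. No circular RNA of the table passed in limma or edgeR (0 of 434, 0.0%), against 24 at an unadjusted limma p under 0.05, and DESeq2 called 0 as well. The 3 Rere circular RNAs stood close to 0, each with a limma adjusted p of 0.992. The 95% intervals were -1.05 to 1.30 for Rere-a, -1.43 to 1.31 for Rere-b and -1.17 to 1.54 for Rere-c, so differences of more than 1 log2 unit in either direction lay inside all of them. A difference as large as that between control and CCl4 (1.29 for Rere-b, 1.34 for Rere-c and 1.62 for Rere-a, on the log2 scale and in the other direction) lay inside the interval for Rere-b and Rere-c and above it for Rere-a. A p that misses the threshold does not show that Rere was alike in the groups with and without PZH.

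**Figure D4:**
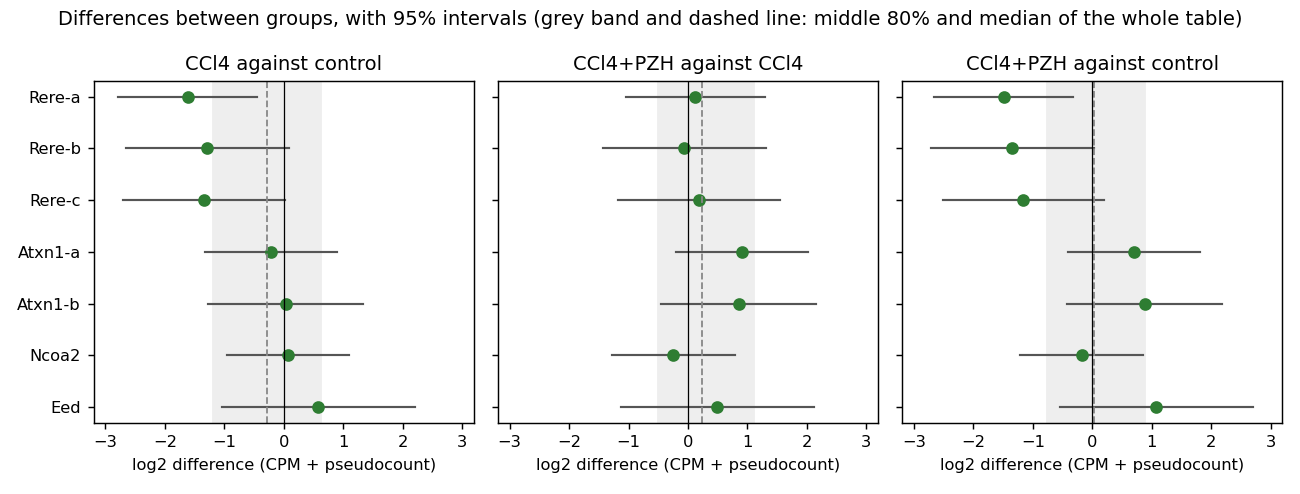
log2 differences of the 7 circular RNAs (points) with 95% intervals from limma in the 3 comparisons; the grey band holds the 10th to 90th percentile of all 434 and the dashed line is their median. Rere-a, Rere-b and Rere-c lie left of the band in both comparisons with control and near 0 in CCl4+PZH against CCl4.

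Both circular RNAs of Atxn1 had their highest mean in CCl4+PZH livers, as did those of Ncoa2 and Eed, and none of these differences passed. Atxn1-a was 0.272, 0, 0.0898, 0, 0 and 0.407 CPM in controls 1, 2, 3, 4, 5 and 8, and 0, 0, 0.274, 0, 0.0874 and 0.0919 CPM in CCl4 livers 1, 2, 4, 5, 7 and 8. In CCl4+PZH livers 1, 2, 3, 6, 7 and 8 it was 0.389, 0, 1.03, 0, 0.301 and 0.344 CPM. The 4 treated livers above 0 all exceeded the highest value listed for a CCl4 liver, and the 2 at 0 made the groups overlap. At a floor of 3 reads, however, the zeros of CCl4 livers 1, 2 and 5 allow up to 0.429, 0.438 and 0.367 CPM. Of the treated livers, CCl4+PZH 3 alone lay above all of these. Group means were 0.128 ± 0.173, 0.0756 ± 0.107 and 0.344 ± 0.377 CPM (SD, n = 6 each) in control, CCl4 and CCl4+PZH.

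Atxn1-b was 0.408, 0, 0, 0.194, 0.0816 and 0.203 CPM in the controls. In CCl4 livers it was 1.29 CPM in mouse 1, 0.437 CPM in mouse 7 and 0 in the other 4, so 1 liver held 9 of the group's 14 reads. In CCl4+PZH livers it was 1.13, 0.588, 0.738 and 0.515 CPM in mice 2, 3, 6 and 8 and 0 in mice 1 and 7. Means were 0.148 ± 0.156, 0.287 ± 0.52 and 0.496 ± 0.439 CPM (SD, n = 6 each).

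For CCl4+PZH against CCl4, Atxn1-a differed by 0.91 (SE 0.57, interval -0.20 to 2.03, limma adjusted p = 0.804) and Atxn1-b by 0.85 (SE 0.67, interval -0.46 to 2.16, limma adjusted p = 0.851), beside a table median of 0.23. Against control, CCl4+PZH gave 0.71 and 0.88 (limma adjusted p = 0.882 for both), and CCl4 gave -0.21 and 0.03 (adjusted p = 0.924 and 0.998). By deposit of the controls, CCl4 against control changed sign for both. It went from -0.68 and -0.42 with controls 1, 5 and 8 to 0.26 and 0.48 with controls 2, 3 and 4. CCl4+PZH against control kept its sign, at 0.23 and 0.43 with the first set and 1.18 and 1.33 with the second.

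The nested pair of Atxn1 did not appear together as a rule. Both were above 0 in 5 livers, 1 of them in 10 and neither in 3. CCl4 1 held 9 reads of Atxn1-b and 0 of Atxn1-a, CCl4+PZH 2 likewise held 9 and 0, and CCl4+PZH 1 held 0 of Atxn1-b and 4 of Atxn1-a. Over the 18 livers Spearman's rho between them was -0.07, a description over sparse counts that share library and depth. Summed, Atxn1 took 15, 18 and 36 reads in control, CCl4 and CCl4+PZH. Its share was 0.173 ± 0.16%, 0.232 ± 0.274% and 0.392 ± 0.168% of the library's recovered reads (SD, n = 6 each), and all 6 treated livers held at least 1 read, from 0.137% to 0.644%.

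Ncoa2 gave the fewest reads, 8, 7 and 6 in the 3 groups, and its group means lay within 0.0162 CPM of each other. It was 0.544, 0, 0.0898, 0.194, 0.0816 and 0 CPM in controls 1, 2, 3, 4, 5 and 8, and 0.143, 0.292, 0.411, 0, 0.0874 and 0 CPM in CCl4 livers 1, 2, 4, 5, 7 and 8. In CCl4+PZH it was 0.147 CPM in mouse 3, 0.859 CPM in mouse 8 and 0 in the other 4. Means were 0.151 ± 0.205, 0.156 ± 0.166 and 0.168 ± 0.344 CPM (SD, n = 6 each), and the groups overlapped throughout. In CCl4+PZH, mouse 8 held 5 of the 6 reads: without it the mean was 0.0294 CPM, and the log2 difference moved to -0.69 against CCl4 and -0.62 against control. The differences were 0.07 for CCl4 against control (interval -0.96 to 1.10, limma adjusted p = 0.982), -0.25 for CCl4+PZH against CCl4 (interval -1.28 to 0.78, adjusted p = 0.992) and -0.18 for CCl4+PZH against control (adjusted p = 0.986). By deposit of the controls, CCl4 against control was -0.10 with controls 1, 5 and 8 and 0.23 with controls 2, 3 and 4. For CCl4+PZH against control the values of Ncoa2 were -0.34 and -0.014.

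Eed had 3 or more reads in 17 of 18 livers. It stood at 1.22, 6.43, 0.135, 0, 1.14 and 2.24 CPM in controls 1, 2, 3, 4, 5 and 8. In CCl4 livers 1, 2, 4, 5, 7 and 8 it was 1.72, 2.19, 1.65, 1.59, 0.962 and 0.644 CPM. In CCl4+PZH livers 1, 2, 3, 6, 7 and 8 it was 0.777, 3.77, 1.76, 1.48, 2.11 and 3.44 CPM. The controls held both the highest and the lowest values, and the exposed livers lay between them. Means were 1.86 ± 2.38, 1.46 ± 0.559 and 2.22 ± 1.16 CPM (SD, n = 6 each), from 69, 70 and 94 reads.

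Control 4 had 0 of 2840 reads of Eed, the most recovered reads of any library, which allows up to 0.581 CPM or a share of 0.106%. The other 17 livers held at least 3 reads each, and their shares ran from 0.333% (control 3) to 1.66% (control 2). By share of recovered reads Eed was 0.816 ± 0.604% (SD, n = 6) in control livers, 0.954 ± 0.214% with CCl4 and 1.03 ± 0.401% with PZH added.

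In limma, Eed differed by 0.58 for CCl4 against control (SE 0.83, interval -1.04 to 2.21, adjusted p = 0.862), where its mean CPM was lower in CCl4. That lower mean rested on control 2: without it the mean of the controls was 0.947 CPM, below the 1.46 CPM of CCl4, and the log2 difference was 1.13. Without control 4 the log2 difference was 0.0087. It differed by 0.49 for CCl4+PZH against CCl4 (interval -1.13 to 2.12, adjusted p = 0.969) and by 1.08 for CCl4+PZH against control (interval -0.55 to 2.70, adjusted p = 0.882). The sign against control rested on controls 3 and 4, the lowest for Eed: without them CCl4 against control was -0.61 and CCl4+PZH against control -0.11. By deposit of the controls, CCl4 against control was -0.10 with controls 1, 5 and 8 and 1.26 with controls 2, 3 and 4. For CCl4+PZH against control the values were 0.39 and 1.76.

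The 7 were set beside the other hosts among chromatin and coregulator genes, a list of 229 genes of which 22 hosted 25 circular RNAs, the 7 included. None of the 25 passed in any comparison. In CCl4 against control 11 were positive and 14 negative, with a median of -0.04, beside 161 and 273 with a median of -0.28 over all 434. In CCl4+PZH against CCl4 they were 17 and 8 (median 0.18; all 434: 303 and 131, median 0.23), and in CCl4+PZH against control 10 and 15 (median -0.06; all 434: 227 and 207, median 0.02). Without the 7, the counts were 8 and 10, 12 and 6, and 7 and 11. All 3 Rere values, at -1.16 or lower, lay below these medians in both comparisons with control.

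Among the other 18, the smallest p in CCl4 against control belonged to Arid1b, a subunit of the SWI/SNF remodelling complex. Its circular RNA at chr17:5040580-5127024 had 0.443 ± 0.508 CPM in controls, 0.0396 ± 0.0638 CPM in CCl4 and 0.0988 ± 0.122 CPM in CCl4+PZH (SD, n = 6 each), with a log2 difference of -1.19 for CCl4 against control (limma adjusted p = 0.403). Cdk8, the kinase of the Mediator complex, followed at -1.14, Arid5b, a cofactor of the demethylase PHF2, at -0.87 and the histone methyltransferase Kmt2a at -0.84 (limma adjusted p = 0.683, 0.73 and 0.736). Phf21a, a reader of unmethylated histone H3, stood at -0.71 and the Mediator subunit Med13l at 0.67 (adjusted p = 0.822 and 0.861).

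For each host's most abundant circular RNA, the most similar patterns over the 18 livers were found by Spearman's rho of CPM against the other 433, as a description. Rere-b was most like a circular RNA of G6pc, which encodes glucose-6-phosphatase, at rho 0.70, and one of Hivep1 at 0.70. Its rho with Rere-a was 0.35 (rank 86) and with Rere-c 0.04 (rank 288), where the median of all was 0.15. Atxn1-b was most like circular RNAs of Car8 (0.72) and Zeb1 (0.67), Ncoa2 like those of Fbxo8 (0.68) and Fgd6 (0.60), and Eed like those of Rfx7 (0.80) and E2f5 (0.77). By Pearson's r, Rere-b was closer to Rere-a (0.74) than to Hivep1 (0.72) or G6pc (0.59), so the order depends on the measure. All of these values share libraries and depth.

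The signs of the Rere differences against control held under every alternative run, but not every alternative could change them. For CCl4 against control, Rere-a stayed at -1.62 without the filter, without the intensity trend and with any CCl4+PZH liver left out. All alternatives also reuse the same livers. Over the 33 or 34 alternatives per comparison, CCl4 against control ranged from -2.97 to -0.50 for Rere-a, -1.80 to -0.57 for Rere-b and -1.81 to -0.43 for Rere-c. Rere-a had an unadjusted p under 0.05 in 33 of 33, with adjusted p from 0.0874 to 0.486, and none of the 7 passed the threshold under any alternative in any comparison. For CCl4+PZH against control the ranges were -2.45 to -0.46, -2.12 to -0.62 and -1.63 to -0.34. Both Atxn1 circular RNAs stayed positive in CCl4+PZH against CCl4, from 0.28 to 1.97 and from 0.24 to 1.35, and Eed stayed positive in that comparison, from 0.05 to 0.73. Alternatives that only left out controls could not change these differences.

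**Figure D5:**
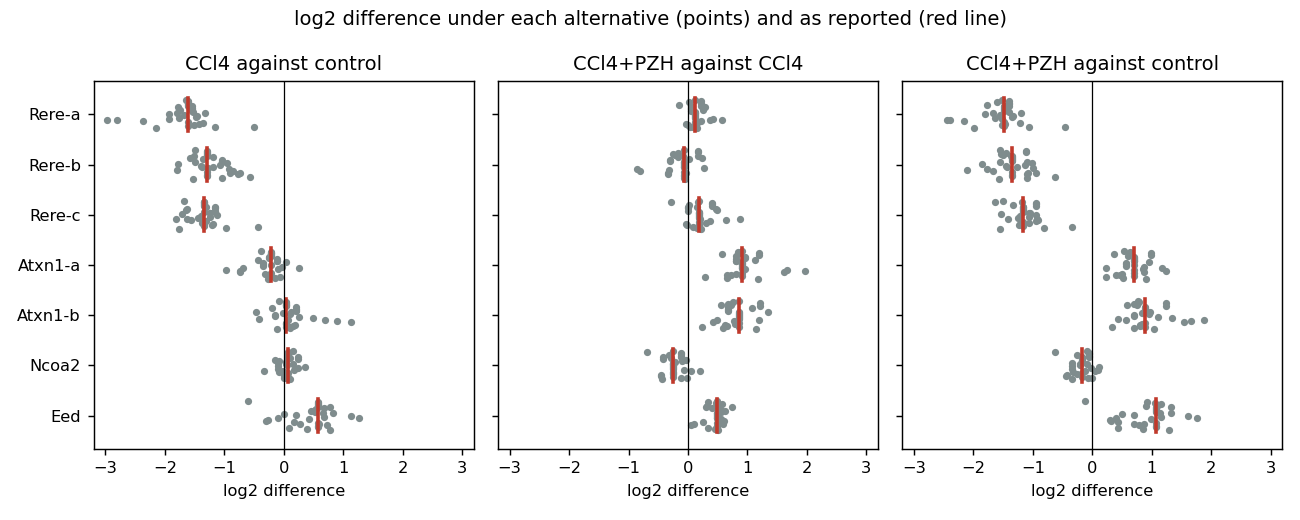
log2 difference of each circular RNA under every alternative (grey points) and as reported (red line) in the 3 comparisons. The Rere points lie left of 0 in both comparisons with control, and those of Atxn1-a, Atxn1-b, Ncoa2 and Eed in CCl4 against control lie on both sides of it.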

How the data were processed

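RNA depleted of ribosomal RNA from 18 livers (6 per group) was sequenced from both ends at 150 bp, per the labels' protocols. The authors deposited CPM values of 434 circular RNAs named by GRCm38 coordinates without strand. Per the submitters' processing notes, the tools were HISAT2 2.2.1 and Bowtie2 2.5.1, StringTie 2.1.5, cutadapt 4.2 and FastQC 0.11.9. Not given in the sources used here are the caller, the CPM denominator and the selection of these 434, each of which had a value above 0 in 9 or more libraries.

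Dividing by the smallest step gave whole reads (tolerance 0.1) for 7812 values, or 100%, and 900 to 2840 reads per library. Hosts were found by containment of both ends in a RefSeq gene of GRCm38.p6, for 429 of 434. Differences were tested two-sided in R 4.3.3 with limma 3.58.1 (intensity trend) on log2(CPM + 0.137), with the median of the 18 smallest non-zero values as pseudocount. A filter on values above 0 in 6 or more libraries removed 0, so all 7 passed. Detection was compared with Fisher's exact test. Where a bound is given for a value of 0, it is a floor of 3 reads. In means and tests every 0 was kept as 0.

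The alternatives were other pseudocounts, filters and scalings, DESeq2 1.42.0 and edgeR 4.0.16 on recovered reads, a rank test, a replicate block, subsets of controls and each library left out. The alternative without controls 3 and 4 was chosen after seeing the data. Other steps ran in Python 3.11.15 (scipy 1.17.1, pandas 2.3.3, numpy 2.4.6, matplotlib 3.10.9). Scripts were tested on simulated data. All 7 circular RNAs are named in every comparison, with the 6 other listed coregulator hosts of smallest p in CCl4 against control and, per host, the 2 circular RNAs of most similar pattern. The members and lists were chosen with earlier results of these data known. Each library is a separate mouse in the labels, and p-values measure the spread between these livers.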

Additional observations from a re-analysis of the deposited data

Results flagged for a closer look

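In 6 of the 21 sets of 6 values (7 circular RNAs in 3 groups), the highest liver's gap to the next, divided by the group's range, exceeded the 95% limit of Dixon's test. That limit is passed by about 1 in 20 sets of normally distributed values. Many of these sets hold several zeros, so that rate does not apply and 6 of 21 is not read as an excess. Rere-c was 1.36 CPM in CCl4+PZH 7, where the next liver had 0.377 CPM. Atxn1-a was 0.274 CPM in CCl4 4 (next 0.0919 CPM), and Atxn1-b was 1.29 CPM in CCl4 1 (next 0.437 CPM). Ncoa2 was 0.544 CPM in control 1 (next 0.194 CPM) and 0.859 CPM in CCl4+PZH 8 (next 0.147 CPM). Eed was 6.43 CPM in control 2 from 21 reads (next 2.24 CPM, in control 8, from 22 reads). Each is the highest value of its group, and each lies in a different liver.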

How the results depend on the processing

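No count of calls among the 7 changed under any alternative, each staying at 0, and 11 of the 21 single differences kept their sign throughout. Leaving out a library outside a comparison could not change the differences of that comparison. For Atxn1-a in CCl4 against control, controls 2, 3 and 4 alone gave 0.26. For Atxn1-b there, the smaller pseudocount gave -0.11, leaving out controls 2, 3 and 4 gave -0.42 and leaving out controls 3 and 4 gave -0.0879. For Ncoa2 there, edgeR with TMM gave -0.0744, edgeR with implied totals -0.0152, DESeq2 -0.32 and leaving out controls 2, 3 and 4 -0.10. For Eed there, the last 3 of these gave -0.30, -0.26 and -0.10, and leaving out controls 3 and 4 gave -0.61. In CCl4+PZH against CCl4, scaling by own recovered reads gave -0.0028 for Rere-a and -0.0228 for Rere-c, and quantile scaling -0.0277 and -0.032. Ncoa2 there was 0.0539 in edgeR with implied totals and 0.20 in DESeq2. In CCl4+PZH against control, Ncoa2 was 0.0387 in edgeR with implied totals, and Eed was -0.11 without controls 3 and 4.

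With each library left out in turn, values ranged in CCl4 against control from -0.43 to 0.0456 for Atxn1-a, -0.46 to 0.26 for Atxn1-b and -0.15 to 0.36 for Ncoa2. In CCl4+PZH against CCl4 they ranged from -0.16 to 0.29 for Rere-a, -0.31 to 0.23 for Rere-b and -0.29 to 0.48 for Rere-c, and for Ncoa2 in CCl4+PZH against control from -0.62 to 0.12. The cause of these reversals was not tested.

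The same replicate number did not mark livers that deviated together: over 13 same-number pairs the correlation ran from -0.15 to 0.08, with 0 above 0.1. A replicate block gave 0.28 for Rere-b in CCl4+PZH against CCl4, 0.10 for Ncoa2 in CCl4+PZH against control and -1.93 for Rere-a in CCl4 against control (limma adjusted p = 0.126), and changed no call. The circular RNAs other than Eed had 21 to 65 reads over 18 livers, and Eed 233 with the largest SE of the 7 in CCl4 against control (0.83). What limits the calls was not tested.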
